A study of Mus musculus with 12 samples.

Results

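The 10 genes described here carry iron into, through and out of cells. They are Trf, Tfrc, Steap3, Slc11a2, Fth1, Ftl1, Slc40a1, Cp, Hmox1 and Ireb2, out of 19505 distinct genes that could be named on the array. They were listed by name, and where a gene had several probe sets the one to be used was selected on its mean signal over all samples. Each gene had 1 probe set, so this choice never arose. All 10 were measured in every sample and no filter on low signal was applied. The list was drawn up with earlier results of these data known.

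Transcript levels were measured in whole mouse kidney on Clariom S expression arrays, with 12 samples in 4 groups of 3. Wild type mice (genotype WT) received vehicle. Alport mice, hemizygous for a nonsense allele of Col4a5 (G5X), received vehicle, losartan or metformin, so both drug groups and their vehicle controls carry the same mutation. Col4a5 encodes a collagen chain of the glomerular basement membrane, and its loss models human Alport syndrome, a progressive hereditary kidney disease. Losartan, a blocker of the angiotensin II type 1 receptor, was given in drinking water at 125 µg/mL from week 6 to 11 and at 250 µg/mL from week 12. Metformin, a biguanide that lowers blood glucose, was given in drinking water at 2.5 mg/mL and later 5 mg/mL over the same weeks. All mice were 16 weeks old at death, although the labels date the later dose to week 20, and they describe losartan as co-administered, so the groups are named by the sample titles. Nothing in the labels ties the 3 samples of a group to separate mice, so p-values rest on a spread between samples that could be partly technical.

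Iron travels in blood bound to transferrin (Trf). Cells take up iron-loaded transferrin through the transferrin receptor (Tfrc), reduce the iron in endosomes with Steap3 and move it to the cytosol through the divalent metal transporter Slc11a2. Ferritin, built from heavy (Fth1) and light (Ftl1) chains, stores iron, and ferroportin (Slc40a1) exports it, helped by ferroxidases such as ceruloplasmin (Cp). Haem oxygenase 1 (Hmox1) frees iron from haem. Iron regulatory protein 2 (Ireb2) binds RNA when cellular iron is low, which stabilises Tfrc transcripts and blocks ferritin translation. In the kidney, the proximal tubule recovers filtered transferrin through megalin (Lrp2) and cubilin (Cubn), and macrophages recycle iron from old red blood cells.

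Levels are given as log2 signal and differences as log2 changes with their standard error from limma (n = 3 per group). A gene is said to have risen or fallen only where its Benjamini-Hochberg adjusted p over all 22206 probe sets was under 0.05. Sample medians ran from 5.88 to 6.07 and maxima from 19.7 to 19.88, and samples correlated across probe sets at 0.99 to 0.994 within groups and at 0.975 to 0.993 between groups. The kidney markers Nphs1, Umod, Slc34a1, Lrp2, Aqp2 and Slc12a3 had a mean log2 signal of 15.44 to 15.90 in each sample. That mean does not show that each marker stayed level. In Alport vehicle against wild type 1 of the 6 rose and 3 fell, beside 8.43% and 7.71% of all probe sets.

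In Alport kidneys given vehicle, the transferrin carrier and the export genes were higher than in wild type, and 2 of the uptake genes were lower. Cp, Trf, Hmox1 and Slc40a1 rose, and Tfrc and Slc11a2 fell, while Steap3, which also acts in uptake, lay higher in all 3 samples without passing the test. Thus 6 of 10 genes changed, while 16.1% of all probe sets did, with 4 risen against 8.43% of all and 2 fallen against 7.71%. The median size of a log2 change was 0.73 among the 10 genes and 0.24 over all probe sets. For 8 of the 10 genes no wild type sample fell within the range of the Alport vehicle samples or the reverse, which held for 29.7% of all probe sets. All these figures over the array include probe sets dimmer than any of the 10 genes. Steap3, the dimmest of the 10 by mean signal, had 32% of probe sets above it. Without the dimmest 33.3% of probe sets, 24.7% of the rest changed. In whole kidney, more or fewer cells of a type and more or less RNA per cell cannot be told apart.

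**Figure D1:**
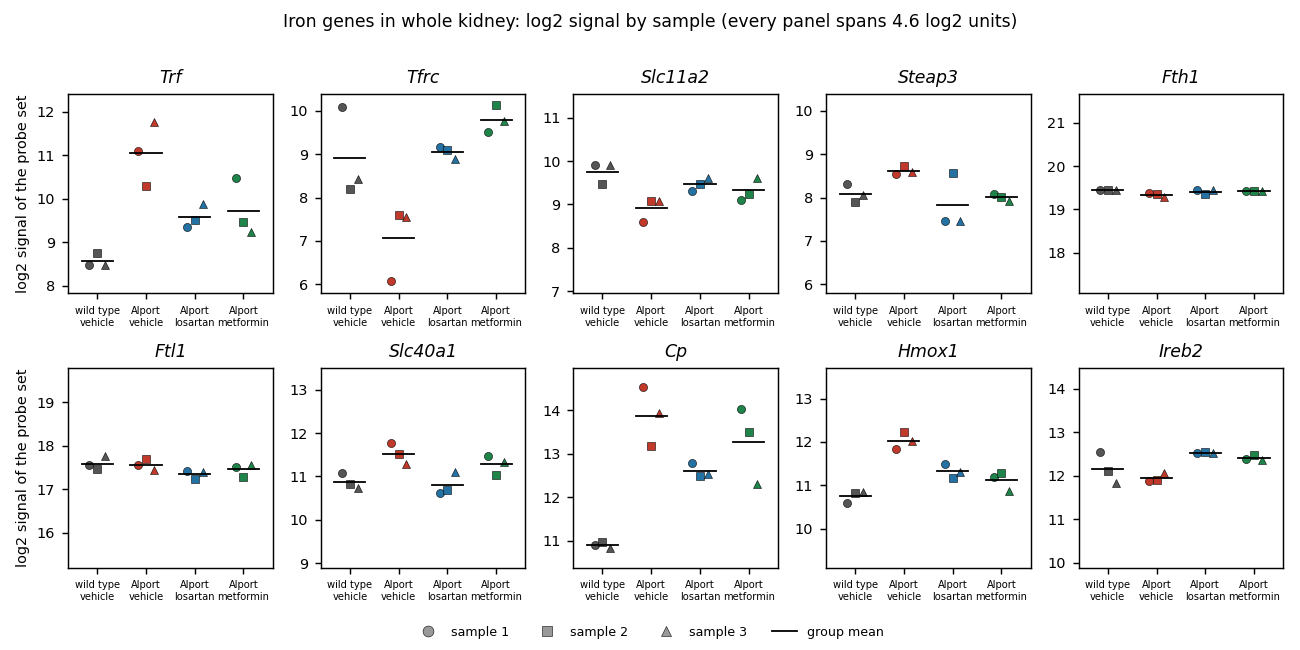
Log2 signal of the probe set of each iron gene (vertical axis) in the 4 groups (horizontal axis). Symbols are single samples and lines are group means. Cp, Trf and Hmox1 lie higher in all 3 Alport vehicle samples than in any wild type sample, Tfrc and Slc11a2 lie lower, and Fth1 and Ftl1 show little spread between groups.

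Transferrin read 8.47, 8.75 and 8.47 in wild type, 11.09, 10.29 and 11.78 in Alport vehicle, 9.34, 9.51 and 9.88 under losartan, and 10.49, 9.47 and 9.23 under metformin. Every Alport sample, treated or not, lay above all wild type samples. Trf rose 5.62-fold in Alport vehicle against wild type (log2 2.49 ± 0.33, limma adjusted p = 8.89e-05). Against Alport vehicle it fell 2.78-fold with losartan (-1.48 ± 0.33, limma adjusted p = 0.0135) and 2.50-fold with metformin (-1.32 ± 0.33, limma adjusted p = 0.0326). The losartan samples all lay below the vehicle samples, whereas metformin sample 1 lay above vehicle sample 2. The fall with losartan did not pass without Alport vehicle sample 1 (adjusted p = 0.0531), Alport vehicle sample 3 (0.0578) or losartan sample 2 (0.0556). The fall with metformin did not pass without Alport vehicle samples 1 (0.105) or 3 (0.119), without metformin samples 2 (0.107) or 3 (0.153), or in a fit of only these groups (0.109).

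The transferrin receptor moved the other way. Tfrc read 10.08, 8.20 and 8.43 in wild type, 6.07, 7.59 and 7.56 in Alport vehicle, 9.17, 9.10 and 8.88 under losartan, and 9.51, 10.12 and 9.76 under metformin. Wild type sample 1 stood above the other 2 wild type samples by more than their own difference, and Alport vehicle sample 1 stood below its group in the same way. All vehicle-treated Alport samples lay below all samples of the other 3 groups. Tfrc fell 3.56-fold in Alport vehicle against wild type (-1.83 ± 0.42, limma adjusted p = 0.00656), or 2.36-fold without wild type sample 1. It rose 3.94-fold with losartan (1.98 ± 0.42, limma adjusted p = 0.00973) and 6.60-fold with metformin (2.72 ± 0.42, limma adjusted p = 0.00303). Without Alport vehicle sample 1 the rise with losartan was 1.48 and did not pass (adjusted p = 0.0558), while that with metformin passed whichever sample was left out (adjusted p up to 0.0158).

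Tfrc is known to respond to hypoxia-inducible factors as well as to iron. Its promoter is shown because Tfrc had the widest swing among the uptake genes, and that of Cp because it had the widest swing in the opposite direction. The sequences are RefSeq's, build GRCm38.p6, plus strand, from 150 bases before to 20 bases after the first annotated start, at chr16:32608746-32608915 for Tfrc and chr3:19956904-19957073 for Cp. Capitals mark ACGTG, the core of hypoxia response elements.
Tfrc: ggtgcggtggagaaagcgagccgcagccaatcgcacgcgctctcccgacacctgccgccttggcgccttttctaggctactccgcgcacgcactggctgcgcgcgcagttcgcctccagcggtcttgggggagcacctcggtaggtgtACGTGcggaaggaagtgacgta
Cp: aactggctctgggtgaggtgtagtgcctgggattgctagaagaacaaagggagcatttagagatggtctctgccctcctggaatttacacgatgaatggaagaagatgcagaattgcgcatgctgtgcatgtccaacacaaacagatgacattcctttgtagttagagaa
The Tfrc stretch has a GC content of 66.5% and holds ACGTG at position -2, across the annotated start, and the Cp stretch has a GC content of 45.9%. Motifs were searched on both strands in windows from 250 bases before to 50 after each annotated start, which RefSeq's table holds for 6 of the 10 genes (12 windows). ACGTG was found in both Tfrc windows, which overlap at this site, and in none of the windows of Fth1, Ftl1, Cp, Steap3 and Ireb2, against 19.6% of 32851 windows of all genes. TGACNNNGC, the core of antioxidant response elements, and TTCNNNGAA, bound by STAT factors, were found in 0 of the 12 windows, against 12.4% and 8.3% of all windows. These matches describe letters in these windows and no binding was measured.

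Of the endosomal genes, Slc11a2 fell in Alport vehicle, as Tfrc did, but passed with neither drug, and Steap3 passed in none of these comparisons. Slc11a2 read 9.91, 9.46 and 9.90 in wild type, 8.60, 9.09 and 9.09 in Alport vehicle, 9.31, 9.47 and 9.60 under losartan, and 9.10, 9.25 and 9.62 under metformin. The Alport vehicle samples were the lowest 3 of the 12. Slc11a2 fell 1.78-fold in Alport vehicle (-0.83 ± 0.20, limma adjusted p = 0.00817), and its differences of 0.53 ± 0.20 with losartan (limma adjusted p = 0.122) and 0.40 ± 0.20 with metformin (0.304) did not pass. Steap3, the endosomal ferric reductase, read 8.31, 7.89 and 8.06 in wild type, 8.54, 8.73 and 8.59 in Alport vehicle, 7.46, 8.57 and 7.47 under losartan, and 8.09, 8.01 and 7.92 under metformin. Losartan sample 2 sat with the vehicle samples, and the other 2 losartan samples were the lowest of all 12. The difference between losartan and vehicle was -0.79 ± 0.24 (limma adjusted p = 0.0581), and it passed without losartan sample 2 (-1.16, 0.00491) and without the dimmest 33.3% of probe sets (0.0467). Against wild type, Alport vehicle was at 0.53 ± 0.24 (limma adjusted p = 0.161), and with metformin the difference from vehicle was -0.61 ± 0.24 (0.172).

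Both ferritin chains were among the brightest probe sets of the array and differed little between groups. Fth1 ranged from 19.29 to 19.45 over the 12 samples, close to the array maxima, and only 0.0405% of probe sets had a higher mean. It read 19.44, 19.45 and 19.45 in wild type and 19.37, 19.35 and 19.29 in Alport vehicle, groups that did not overlap but differed by only -0.11 ± 0.14 (limma adjusted p = 0.685). Ftl1 read 17.56, 17.46 and 17.76 in wild type and 17.57, 17.69 and 17.44 in Alport vehicle, which overlapped (-0.03 ± 0.16, limma adjusted p = 0.944). With losartan Ftl1 read 17.43, 17.23 and 17.40 (-0.21 ± 0.16 from vehicle, limma adjusted p = 0.515), and with metformin 17.52, 17.29 and 17.56. These values do not show that ferritin transcripts stayed level, since the response of so bright a probe set to more RNA was not tested. Ferritin genes also have near-identical pseudogene copies that can share signal on an array.

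On the export side, ceruloplasmin had the widest range of group means of the 10 genes. Cp, the plasma ferroxidase, read 10.91, 10.96 and 10.83 in wild type, 14.53, 13.18 and 13.94 in Alport vehicle, 12.78, 12.49 and 12.53 under losartan, and 14.04, 13.50 and 12.31 under metformin. Even the lowest treated sample lay above the highest wild type sample, and metformin samples 1 and 2 lay within the range of the vehicle samples. Cp rose 7.91-fold in Alport vehicle (2.98 ± 0.35, limma adjusted p = 3.13e-05), and this passed whichever sample was left out, at 2.66 to 3.33. It fell 2.43-fold with losartan (-1.28 ± 0.35, limma adjusted p = 0.0352), but the difference from vehicle with metformin was -0.60 ± 0.35 (limma adjusted p = 0.403). The fall with losartan passed only when Alport vehicle sample 2 was left out. Leaving out Alport vehicle samples 1 (-0.96, adjusted p = 0.178) or 3 (0.0889), or losartan samples 1 (0.0562), 2 (0.121) or 3 (0.101), or using a trended robust prior (0.0753) ended the call.

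Ferroportin changed less. Slc40a1 read 11.07, 10.83 and 10.74 in wild type, 11.77, 11.51 and 11.28 in Alport vehicle, 10.63, 10.68 and 11.10 under losartan, and 11.47, 11.04 and 11.34 under metformin. The vehicle samples lay above all wild type and losartan samples and overlapped with the metformin samples. Slc40a1 rose 1.56-fold in Alport vehicle (0.64 ± 0.19, limma adjusted p = 0.0301), and fell 1.64-fold with losartan (-0.72 ± 0.19, limma adjusted p = 0.0299). Its difference of -0.24 ± 0.19 with metformin did not pass (limma adjusted p = 0.581). The rise was lost after centring each sample on its median (0.50, adjusted p = 0.079) and without wild type samples 2 (0.0849) or 3 (0.109) or Alport vehicle samples 1 (0.131) or 2 (0.0561). The fall was lost after the same centring (0.0534), when the fit held only these groups (0.0622), and without Alport vehicle samples 1 (0.139) or 2 (0.0509) or losartan samples 1 (0.0985) or 2 (0.121).

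Haem oxygenase 1 had its highest mean in Alport vehicle and its lowest in wild type. Hmox1 read 10.59, 10.83 and 10.85 in wild type, 11.84, 12.22 and 12.02 in Alport vehicle, 11.50, 11.16 and 11.30 under losartan, and 11.19, 11.28 and 10.87 under metformin. Neither drug group overlapped with vehicle or with wild type. Hmox1 rose 2.41-fold in Alport vehicle (1.27 ± 0.17, limma adjusted p = 0.000111), and fell 1.63-fold with losartan (-0.71 ± 0.17, limma adjusted p = 0.0204) and 1.88-fold with metformin (-0.91 ± 0.17, limma adjusted p = 0.00821). With losartan the call was lost without Alport vehicle samples 2 (adjusted p = 0.06) or 3 (0.0511) or losartan samples 2 (0.1) or 3 (0.0652), and with metformin without metformin sample 3 (0.0564).

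The regulator Ireb2 did not pass in any comparison. It read 12.54, 12.10 and 11.83 in wild type, 11.87, 11.91 and 12.06 in Alport vehicle, 12.53, 12.54 and 12.52 under losartan, and 12.38, 12.48 and 12.36 under metformin. Both drug groups lay above all vehicle samples, whereas the wild type samples spread over the whole range, with wild type sample 1 high as it was for Tfrc. The difference from vehicle was 0.58 ± 0.18 with losartan (limma adjusted p = 0.0549) and 0.46 ± 0.18 with metformin (0.161). That with losartan passed after centring each sample on its median (0.68, adjusted p = 0.0265), without the dimmest 33.3% of probe sets (0.044) and with a trended robust prior (0.0324).

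**Figure D2:**
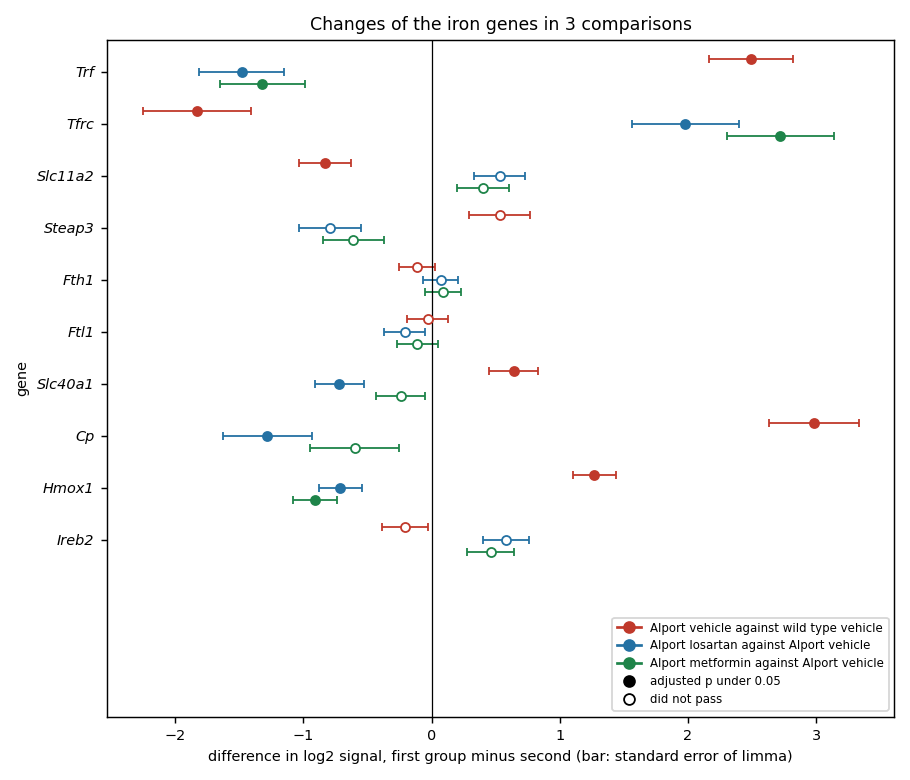
Difference in log2 signal (horizontal axis) of each iron gene (vertical axis) in Alport vehicle against wild type and in losartan and metformin against Alport vehicle. Bars are standard errors of limma, and filled points have an adjusted p under 0.05. For Trf, Tfrc and Hmox1 all 3 points are filled, and both drug points lie on the other side of 0 from the disease point.

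In counts, 5 of the 10 genes changed with losartan, 4 falling and 1 rising, against 7.9% of all probe sets (4.11% falling and 3.79% rising). With metformin 3 changed, 2 falling and 1 rising, against 4.94% of all (2.27% falling and 2.67% rising). Without the dimmest 33.3% of probe sets, 12.7% of the rest changed with losartan and 8.15% with metformin. The losartan samples lay wholly apart from the vehicle samples for 8 of the 10 genes, against 23.1% of all probe sets, and the metformin samples for 6, against 20.5%. The count with losartan dropped to between 1 and 3 when any 1 sample of these groups was left out, to 1 without Alport vehicle sample 1, to 2 without Alport vehicle sample 3 or losartan sample 2, and to 3 otherwise. That with metformin dropped to 2 without Alport vehicle samples 1 or 3 or metformin sample 2, and to 1 without metformin sample 3. The share of all probe sets called moved as well. With losartan it was 3.32% without Alport vehicle sample 1, 3.22% without losartan sample 2 and 9.34% without Alport vehicle sample 2. With metformin it was 1.56% without Alport vehicle sample 1, 1.2% without metformin sample 3 and 5.94% without Alport vehicle sample 2. Both comparisons use the same Alport vehicle samples, and so does the comparison with wild type, so opposite signs in them are not independent.

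The drugs were compared with each other directly. None of the 10 genes differed between metformin and losartan by limma at an adjusted p under 0.05, with 0.045% of all probe sets called (0.018% higher with metformin and 0.027% lower), and 1 of the 10 had an unadjusted p under 0.05. The 2 drug groups did not overlap for 2 of the 10 genes, 1 higher and 1 lower with metformin, against 5.77% and 7.74% of all probe sets (13.5% in all). The gene with the small p was Slc40a1, higher with metformin by 0.48 ± 0.19 (95% interval 0.08 to 0.88, limma adjusted p = 0.505). The interval for Tfrc ran from -0.15 to 1.64 and that for Cp from -0.07 to 1.43, so differences of more than 2-fold in these genes are within the error. For Fth1 it ran from -0.29 to 0.31 and for Hmox1 from -0.58 to 0.16.

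Against wild type, only Cp passed in the treated Alport kidneys. With losartan 0.549% of all probe sets passed (0.401% higher and 0.149% lower), and with metformin 4.18% (2.7% higher and 1.48% lower). For each drug 4 of the 10 genes had no overlap with wild type, 3 higher and 1 lower, against 16.7% of all probe sets with losartan (8.4% higher and 8.32% lower) and 22.8% with metformin (10.6% higher and 12.2% lower). Cp was 3.25-fold higher with losartan (1.70 ± 0.35, limma adjusted p = 0.043) and 5.22-fold higher with metformin (2.38 ± 0.35, limma adjusted p = 0.00131). The losartan call was lost whichever of the 6 samples was left out (without wild type sample 3 the adjusted p was 0.187), after a new quantile normalization (0.0533) and with a trended robust prior (0.102). Trf differed by 1.01 ± 0.33 with losartan (limma adjusted p = 0.235) and 1.17 ± 0.33 with metformin (0.0606), and neither treated group overlapped with wild type. Trf passed against wild type in a fit of only the groups compared, with losartan (0.0207) and with metformin (0.0409), and the metformin difference also passed without metformin sample 3 (0.0316), without the dimmest 33.3% of probe sets (0.0496) and with array weights (0.031). Tfrc with metformin stood at 0.89 ± 0.42 from wild type (limma adjusted p = 0.281), and at 1.48 without wild type sample 1 (0.0395).

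The order of the group means therefore differed by gene. For Cp it was wild type, losartan, metformin and Alport vehicle from lowest to highest, and only wild type and losartan differed among neighbours (limma adjusted p = 0.043, then 0.654 and 0.403). Trf had the same order, with only metformin and vehicle differing among neighbours (0.235, 0.952 and 0.0326). Hmox1 ran from wild type through metformin and losartan to vehicle (0.298, 0.824 and 0.0204). Slc40a1 ran from losartan through wild type and metformin to vehicle, and no neighbours differed (0.937, 0.281 and 0.581). For Tfrc the lowest mean was that of Alport vehicle, followed by wild type, losartan and metformin, and only the first step passed (0.00656, 0.946 and 0.698). For Slc11a2 it was Alport vehicle, metformin, losartan and wild type, with no neighbours differing (0.304, 0.925 and 0.659).

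For the 3 genes with the widest range of group means, those with the most similar profile were found by the root mean square difference of mean-centred log2 levels over the 12 samples. Nearest to Cp were Anxa2 (0.25), Runx1 (0.25) and Dcdc2a (0.26), and nearest to Trf were Apoe (0.21), Timp2 (0.25) and Aebp1 (0.27). Apoe, for example, averaged 13.81 in wild type, 16.22 in Alport vehicle, 14.70 with losartan and 14.96 with metformin. For Tfrc the nearest were Acsm1 (0.47), Slc22a19 (0.50) and Slc16a4 (0.54), which lay further off. Acsm1 had group means of 13.16, 11.34, 13.03 and 13.43 in the same order of groups.

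Markers of some cell types and of injured tubule cells also differed in Alport vehicle, beside 8.43% of all probe sets rising and 7.71% falling. Of 11 measured macrophage markers 10 rose in Alport vehicle against wild type, and their mean log2 signal ran from 6.41 to 6.79 in wild type samples, 8.63 to 10.14 in Alport vehicle, 7.74 to 8.12 with losartan and 7.90 to 9.30 with metformin. The 4 measured fibroblast and pericyte markers all rose, with means of 8.07 to 8.46, 12.54 to 12.77, 9.86 to 10.62 and 10.37 to 11.44 in these groups. Of 10 proximal tubule markers 8 fell (5 without any 1 of wild type samples 1 and 2 and Alport vehicle samples 1 and 3, and 4 after a new quantile normalization), with means of 16.98 to 17.03, 15.91 to 16.43, 16.67 to 16.91 and 16.78 to 16.88. Of the injured tubule markers all 6 measured, Havcr1, Lcn2, Krt20, Sox9, Vcam1 and Clu, rose in Alport vehicle, with a median log2 change of 4.33, and their means were 7.33 to 7.48, 11.94 to 13.10, 10.12 to 11.06 and 10.16 to 12.46. Lcn2 also stands in the wider iron transport list, as do the proximal tubule markers Lrp2 and Cubn. With losartan 5 of the 6 fell, beside 4.11% of all probe sets. Only 2 fell without Alport vehicle sample 1 or losartan sample 2, and 3 without losartan sample 3 or with a trended robust prior. With metformin 1 fell, beside 2.27% of all probe sets, 0 without Alport vehicle sample 1 and 2 without metformin sample 1. For each of these 4 lists the wild type and Alport vehicle samples did not overlap. Other marker lists changed less in Alport vehicle. Of 5 collecting duct markers 1 rose, and of 5 endothelial markers 1 rose and 1 fell. Of 5 markers of the thick ascending limb and distal tubule 2 fell. With 1 sample left out, 1 to 2, 0 to 3 and 1 to 3 markers of these lists changed. For red blood cells only Alas2, Slc4a1 and Epb42 of 9 listed markers could be matched, and the haemoglobin genes were not among them. Of these 3, Epb42 rose (0.89) and Alas2 fell in Alport vehicle. The rise of Epb42 was lost without wild type samples 2 (0.0761) or 3 (0.0577) or Alport vehicle sample 1 (0.122). Hepatocytes are the main source of plasma transferrin and ceruloplasmin, and of 5 hepatocyte markers 2 rose and 1 fell in Alport vehicle. Transthyretin (Ttr, 1.19 ± 0.28, limma adjusted p = 0.0069) and the fibrinogen chain Fgb (2.03 ± 0.54, 0.0161) rose and albumin (Alb, -1.29 ± 0.25, 0.00173) fell. The rise of Fgb was lost without wild type sample 1 (0.0691) or Alport vehicle samples 1 (0.0853) or 3 (0.0736) and with a trended robust prior (0.0791), and stood at 2.69 without Alport vehicle sample 2. The part of these cell types and of injured cells in the iron gene changes was not tested.

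**Figure D3:**
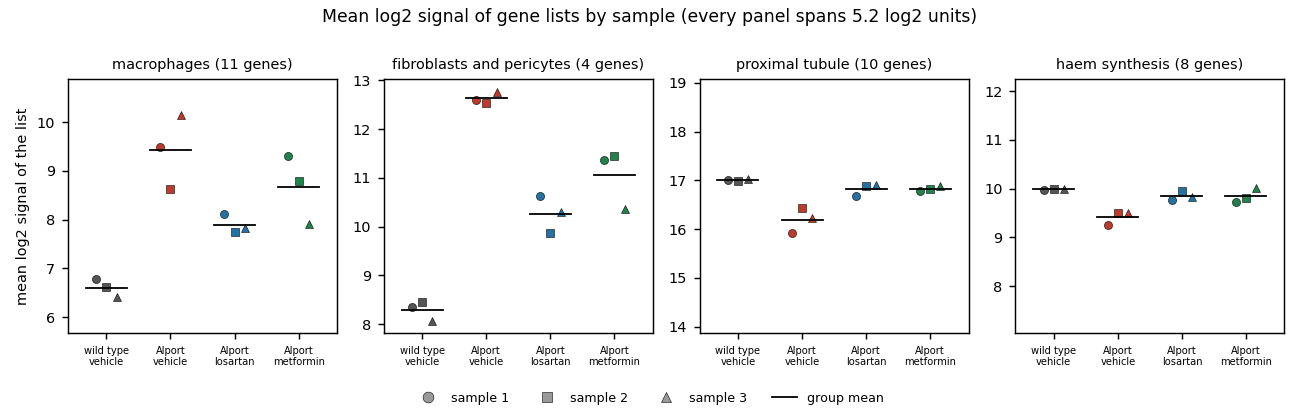
Mean log2 signal (vertical axis) of the markers of macrophages, of fibroblasts and pericytes and of the proximal tubule, and of haem synthesis genes, in each sample of the 4 groups (horizontal axis). Symbols are single samples and lines are group means. The 3 Alport vehicle samples lie above all wild type samples for the first 2 lists and below them for the other 2.

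Other genes of iron handling were taken from wider lists. Of 21 further genes of iron transport and storage, 4 rose and 4 fell in Alport vehicle, beside 8.43% and 7.71% of all probe sets, with a median log2 change of 0.05 beside -0.03 over all. The risen genes were Lcn2, which binds iron-loaded siderophores (9.05 ± 0.68, limma adjusted p = 5.21e-07), the ferroxidase Heph and the metalloreductase family members Steap1 and Steap4. The fallen genes were the metal importer Slc39a8 (-1.11 ± 0.21, limma adjusted p = 0.00176), Lrp2 (a mean of 16.56 against 17.56 in wild type, 0.00178), Cubn (-1.12 ± 0.20, 0.00102) and the lipocalin 2 receptor Slc22a17. Lrp2 and Cubn are also counted above as proximal tubule markers and Lcn2 as an injured tubule marker, so these counts share probe sets. Heph, Steap1, Steap4 and Slc22a17 were named after their values were seen. Heph (0.89, adjusted p = 0.0464) passed only without Alport vehicle sample 2 among the 6 samples left out in turn, and reached 0.42 without Alport vehicle sample 3 (0.189). Steap1 (0.72) was lost without wild type samples 1 (0.0676) or 3 (0.0857) or Alport vehicle sample 1 (0.1).

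With losartan, Slc39a8 (0.91 ± 0.21, limma adjusted p = 0.0162), Lrp2 (0.75 ± 0.19, 0.0257) and Cubn (1.02 ± 0.20, 0.00627) rose and Steap1 (-0.77 ± 0.20, 0.0271) fell, out of 21, beside 3.79% of all probe sets rising and 4.11% falling. With metformin Cubn was the only one of the 21 to change (1.06 ± 0.20, limma adjusted p = 0.00767), a share close to the 4.94% of all probe sets. The calls of Cubn with both drugs passed whichever sample was left out. Those of Slc39a8, Lrp2 and Steap1 with losartan were lost without Alport vehicle sample 1 (0.0868, 0.132 and 0.131) and without losartan sample 2 (0.0882, 0.0647 and 0.087), those of Lrp2 and Steap1 also without losartan sample 3 (0.121 and 0.0897), and that of Steap1 without losartan sample 1 (0.0516).

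In the list of iron sensing and the hepcidin axis 1 of 15 genes rose and 1 fell in Alport vehicle, and the median log2 change was 0.01. That is no larger a share than the 16.1% of all probe sets that changed. Hif1a, the oxygen-regulated transcription factor, rose (0.78 ± 0.19, limma adjusted p = 0.00815). Aco1, which as iron regulatory protein 1 is the partner of Ireb2, fell (-0.67 ± 0.20, limma adjusted p = 0.0347). With metformin Aco1 rose (0.80 ± 0.20, limma adjusted p = 0.0355), and with losartan it stood at 0.45 ± 0.20 (0.22). Its fall was lost without wild type samples 1 (0.133) or 3 (0.0828) or Alport vehicle samples 1 (0.135) or 3 (0.116), and after a new quantile normalization (0.0907). Its rise with metformin was lost without Alport vehicle samples 1 (0.142) or 3 (0.101) and without any 1 of the metformin samples (0.0779, 0.0795 and 0.114).

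Haem synthesis genes lay lower in Alport vehicle. Of 8 measured genes 4 fell and 0 rose, with a median log2 change of -0.52, beside 7.71% of all probe sets falling. They were Cpox (-0.90 ± 0.20, limma adjusted p = 0.0044), Alas2 (-1.09 ± 0.23, 0.00368), Alad (-0.58 ± 0.17, 0.0277) and Ppox (-0.59 ± 0.19, 0.0471), which encode enzymes of the pathway. Alas2, also counted above as a red blood cell marker, is the erythroid form of the first enzyme. Its signal in Alport vehicle (5.60, 6.45 and 6.24) lay near the sample medians of 5.88 to 6.07. The other form, Alas1, did not pass (-0.31 ± 0.28, limma adjusted p = 0.532). The 3 Alport vehicle samples had a mean over the list of 9.26 to 9.50 and the wild type samples of 9.98 to 9.99. Ppox was lost whichever sample was left out (0.0676 to 0.185), and Alad was lost without any 1 of the wild type samples or Alport vehicle samples 1 and 2 (0.051 to 0.0978), so that 2 or 3 genes of the list remained called. Neither drug brought a call for Cpox or Alas2 against vehicle. Cpox under metformin (12.46 to 12.88) stayed within the vehicle range (12.37 to 12.89), while its losartan samples (12.97 to 13.45) lay above that range. Alas2 reached at most 6.75 in a treated sample, below all wild type samples (7.12 to 7.23). Compared with wild type, 2 of the 8 genes had fallen under metformin and 0 under losartan, beside 1.48% and 0.149% of all probe sets. Between metformin and losartan 0 of the 8 differed, beside 0.045% of all probe sets. Against vehicle, Alas1 rose with losartan (0.98 ± 0.28, limma adjusted p = 0.0401), and Alad (0.80 ± 0.17, 0.0144) and Ppox (0.77 ± 0.19, 0.0323) rose with metformin. Leaving out Alport vehicle sample 1 ended all 3 calls (0.156, 0.0524 and 0.0964). They were also lost without losartan samples 2 (0.147) or 3 (0.131) or Alport vehicle sample 3 (0.0873) for Alas1, without metformin sample 3 for Alad (0.0796) and Ppox (0.107), and without Alport vehicle sample 3 (0.0758) or metformin sample 2 (0.125) for Ppox.

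Of 12 genes that handle haem and haemoglobin, 3 rose and 2 fell in Alport vehicle, beside 8.43% and 7.71% of all probe sets. Lrp1, the receptor that takes up haem bound to haemopexin, rose 3.47-fold (1.79 ± 0.20, limma adjusted p = 2.03e-05), fell 3.43-fold with losartan (-1.78 ± 0.20, 0.000254) and fell 2.68-fold with metformin (-1.42 ± 0.20, 0.00172), and these calls passed whichever sample was left out. The haem exporter Flvcr1 rose (0.91 ± 0.25, limma adjusted p = 0.0174, lost without wild type sample 3 or Alport vehicle samples 1 or 2 at up to 0.0794). The haem and folate carrier Slc46a1 (-1.04 ± 0.23, limma adjusted p = 0.00513) and Flvcr2 (-1.34 ± 0.29, 0.00447) fell. Haptoglobin (Hp), named after its value was seen, was the third to rise, and its wild type mean of 3.72 was dimmer than the lower quartile of each array, for which reason it gets no fold. With metformin Flvcr2 rose (1.10 ± 0.29, limma adjusted p = 0.0405, lost without Alport vehicle samples 1 or 3 or metformin samples 1 or 3 at up to 0.192).

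In the list of iron-sulfur cluster assembly 2 of 14 genes fell in Alport vehicle, the cysteine desulfurase Nfs1 (-1.21 ± 0.23, limma adjusted p = 0.0016) and the ferredoxin Fdx1 (-0.90 ± 0.23, 0.0124), with a median log2 change of -0.46 over the list. The count is no larger a share than the 16.1% of all probe sets that changed, but both genes fell, and 7.71% of all probe sets fell. The mean over the list was 10.54 to 10.95 in the Alport vehicle samples and 11.12 to 11.17 in the wild type samples. The count ran from 1 to 5 when samples were left out in turn, and Fdx1 was lost without wild type sample 2 (0.058) or Alport vehicle sample 1 (0.0609). Nfs1 rose by 0.85 ± 0.23 with losartan (limma adjusted p = 0.0333) and with metformin (0.0466), and both rises were lost without Alport vehicle samples 1 (0.167 and 0.2) or 3 (0.0781 and 0.0961), without sample 2 of either drug group (0.13 and 0.117) and without sample 3 of either (0.113 and 0.181).

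Genes of stress pathways that also act on Hmox1 and Tfrc were counted beside the 16.1% of all probe sets that changed in Alport vehicle. Of 12 measured targets and regulators of NRF2, a transcription factor that also activates Hmox1, Gclm alone passed and fell in Alport vehicle (-0.48 ± 0.16, limma adjusted p = 0.0443). That call was lost without any 1 of the wild type samples (0.0661, 0.0652 and 0.174) or Alport vehicle samples 1 (0.119) or 3 (0.108), and after a new quantile normalization, where Gclm stood at -0.29 (0.216). Of 12 hypoxia-inducible genes 2 fell in Alport vehicle, Car9 (-1.17 ± 0.21, limma adjusted p = 0.00115) and Egln3 (-0.66 ± 0.19, 0.0271), the latter lost without wild type samples 1 (0.102) or 3 (0.0842) or Alport vehicle samples 1 (0.0665) or 2 (0.111). Car9, a carbonic anhydrase, rose with losartan (0.73 ± 0.21, limma adjusted p = 0.0471) and metformin (0.91 ± 0.21, 0.0232), and both calls were lost without Alport vehicle samples 1 (0.111 and 0.0722) or 2 (0.138 and 0.0633) and without samples 2 (0.226 and 0.0632) or 3 (0.0999 and 0.0977) of the drug group, and that with losartan without Alport vehicle sample 3 (0.0527). The signal of Car9 in Alport vehicle (5.92, 5.61 and 6.09) lay near the sample medians of 5.88 to 6.07. Bnip3, named after its values were seen, was the other gene of that list to rise, with losartan (0.87 ± 0.21, limma adjusted p = 0.0204) and with metformin (0.84 ± 0.21, 0.034), so that 2 of 12 rose with each drug, beside 3.79% and 2.67% of all probe sets. Its rise with losartan was lost without Alport vehicle sample 1 (0.105) or losartan sample 2 (0.0941). Its rise with metformin was lost without Alport vehicle sample 1 (0.151), without any 1 of the metformin samples (0.0987, 0.0565 and 0.104), and when the fit held only these groups (0.0935). Of 10 ferroptosis genes, which include Tfrc, only Acsl4 rose in Alport vehicle (1.31 ± 0.18, limma adjusted p = 0.00011), and only Tfrc fell. Acsl4, which loads membranes with oxidisable fatty acids, stood at -0.18 ± 0.18 with losartan (limma adjusted p = 0.645) and -0.16 ± 0.18 with metformin (0.725).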

How the data were processed

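The authors deposited 1 table of log2 signals, with a row for each probe set, made with Transcriptome Analysis Console 4.0, per the submitters' processing notes. That these are log2 signals was inferred from their range, 2.3 to 19.88. The sources used here do not give the background correction, the normalization or the probe summary. Per the labels' protocols, 100 ng of total RNA was labelled per array. Precision is limited by how few arrays there are: in Alport vehicle against wild type, log2 changes had a median standard error of 0.20.

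Probe sets were named through GEO's platform annotation, updated by Entrez identifier against RefSeq (GRCm38.p6). A single symbol was found for 19572 of 22206 probe sets, and 2634 had none. With limma 3.58.1 in R 4.3.3 (lmFit, then eBayes), 1 mean per group was fitted over the 12 samples, leaving 8 residual degrees of freedom. All tests are two-sided, with Benjamini-Hochberg adjustment over all probe sets of a comparison. The procedure was also run on simulated data whose noise was independent between probe sets. That need not hold here, so its error rates in these data were not tested. The genes named were all 10 iron genes and, from each wider list, the 4 with the smallest p in Alport vehicle against wild type and the brightest, where the text turns on them. The members, lists and alternatives were chosen with earlier results of these data known, so the p-values describe these samples and are not independent evidence.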

Additional observations from a re-analysis of the deposited data

How the results depend on the processing

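The number of iron genes changed in Alport vehicle against wild type (6) stayed at 4 to 6 under all alternatives, and at 5 to 6 with 1 sample left out. For losartan against vehicle (5) it was 1 to 3 with 1 sample left out, 7 without the dimmest 33.3% of probe sets, where Steap3 and Ireb2 passed too, and 3 with an unadjusted p under 0.05 and a change of at least 2-fold. For metformin against vehicle (3) it was 1 to 3 with 1 sample left out, and for metformin against losartan it was 0 throughout. The share of all probe sets called also moved with 1 sample left out. It ran from 11.5% to 16.9% in Alport vehicle against wild type, from 3.22% to 9.34% for losartan against vehicle and from 1.2% to 5.94% for metformin against vehicle. For losartan against wild type (1) the count was 0 after a new quantile normalization, 0 with a trended robust prior, 0 with any 1 sample left out, 2 when only these groups were fitted, and 2 by the unadjusted rule. For metformin against wild type (1) it was 2 without those dimmest probe sets, 2 with array weights, 2 in a fit of only these groups, 2 by the unadjusted rule and 1 to 2 with 1 sample left out. Over single genes, 783 alternative values kept their side of the threshold, 44 lost and 13 gained a call, and no called value changed sign. Most of the 783 belong to genes without a call in the main fit of that comparison, where none could be lost. The causes of these lost and gained calls were not tested. The replicate numbers showed no sign of pairing the samples over all probe sets. Deviations of same-numbered samples correlated at -0.14 to 0.0776 over 18 pairs. A sample correlated best with its own number, out of 3, in 8 of 36 cases. A pairing that acts on some genes only was not tested by this. With the replicate number as a block the counts were 6, 5, 3, 0, 1 and 1, and no call of an iron gene changed, while among the other named genes the falls of Ppox (0.0611) and Gclm (0.0662) in Alport vehicle were lost. With each sample centred on its median, the probe sets' median log2 change in Alport vehicle went from -0.03 to -0.17 and the share of rises among changed probe sets went from 52.2% to 33.8%, with shifts from 48% to 63.1% for losartan and from 54% to 68.5% for metformin against vehicle, and from 64.5% to 51.4% for metformin against wild type. The other probe sets of a gene could not be tried, since each iron gene had 1.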

Other observations

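Samples within a group differed in the iron genes, and these patterns were noticed after the values were seen and have no test. In the metformin group, Cp (14.04, 13.50 and 12.31), Trf (10.49, 9.47 and 9.23) and the mean of the macrophage markers (9.30, 8.78 and 7.90) were highest in sample 1 and lowest in sample 3. In Alport vehicle, Trf (11.09, 10.29 and 11.78) and the macrophage mean (9.49, 8.63 and 10.14) were both highest in sample 3 and lowest in sample 2, whereas Cp (14.53, 13.18 and 13.94) was highest in sample 1 and lowest in sample 2. The mean of the injured tubule markers had the order of Cp in both groups, at 13.10, 11.94 and 12.46 in Alport vehicle and 12.46, 11.97 and 10.16 with metformin. The losartan group did not show these matches of Trf with the macrophage mean or of Cp with the injured tubule markers. Its order for Cp was that of Alport vehicle, and its order for the injured tubule markers was that of the metformin group. With losartan Trf (9.34, 9.51 and 9.88) was highest in sample 3 and the macrophage mean (8.12, 7.74 and 7.83) in sample 1. Cp (12.78, 12.49 and 12.53) had the order of the macrophage mean there, and not that of the injured tubule markers (11.06, 10.22 and 10.12). Alport vehicle sample 1 had the lowest Tfrc (6.07), the lowest Slc11a2 (8.60), the lowest mean of proximal tubule markers (15.91) and the lowest mean of haem synthesis genes (9.26) of all 12 samples. Wild type sample 1 had the highest Tfrc (10.08) and Ireb2 (12.54) of its group.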
